A study of Mus musculus with 6 samples.

Results

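From the 23016 entries in a table of gene levels from newborn mouse cerebral cortex, 46 genes of the Wnt signalling pathway were chosen. They are described here in Fezf2 KO and wild type pups. They were taken by symbol from a list of Wnt ligands, their receptors, secreted antagonists, R-spondins, nuclear effectors and feedback targets, and each symbol matched 1 entry. Total RNA was made from dissected cortex of 3 wild type pups (Fezf2+/+) and 3 Fezf2 KO pups (Fezf2-/-) on postnatal day 0, born to matings of Fezf2+/- parents, with 1 brain per library. The strain and the extent of the deletion are not given in the sources used here, and the mutation is present in every cell of the animal rather than in the cortex alone. Litter m1 supplied replicates 1 and 2 of each genotype, and litter m2 supplied replicate 3. The comparison asks which transcripts differ when cortex develops without Fezf2, which encodes a transcription factor made by neurons of the deep cortical layers.

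Wnt proteins are secreted, lipid-modified signals that bind Frizzled receptors together with the co-receptors Lrp5 and Lrp6. In the canonical branch this stops the Axin-containing destruction complex from degrading β-catenin (the product of Ctnnb1), which then enters the nucleus and acts with factors of the Tcf and Lef family on target genes. Several of those targets, such as Axin2, Sp5, Nkd1, Notum and Znrf3, feed back on the pathway. In the embryonic forebrain Wnts from the medial edge of the cortex pattern the hippocampus and dorsal cortex, and Wnt7a and Wnt7b act on the growing brain vasculature.

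Levels below are normalised read counts (reads of a library divided by its size factor), and where 3 values are given for a genotype they stand in the order of replicates 1, 2 and 3. Differences are Fezf2 KO minus wild type in log2(normalised count + 1), a scale that shrinks the change of genes with few reads. A gene is said to have changed where limma gave it a Benjamini-Hochberg adjusted p below 0.05, adjusted over all 17557 genes with at least 10 normalised reads in at least 3 libraries. Nothing in the labels beyond 1 brain per library describes separate handling, so p-values measure the spread between these brains. The libraries held 44978380 to 52872577 reads. Fezf2 itself fell from between 5030.3 and 5928 in wild type to between 1377 and 1989 in Fezf2 KO libraries (log2 -1.75, SE 0.129, limma adjusted p = 0.000832), so reads of the gene remained. The 5 cortical marker genes used here (Emx1, Emx2, Bcl11b, Tbr1 and Neurod6) were read in every library, with a summed level of 39603 to 44642 in wild type and 36991 to 40270.1 in Fezf2 KO. Limma, edgeR and DESeq2 called 0 of the 5, and the 1 with an unadjusted p under 0.05 was Bcl11b, at a mean of 13030.2 in wild type and 7468 in Fezf2 KO without overlap (log2 -0.84, limma adjusted p = 0.114). A pair of libraries stood apart in tissue markers. Fezf2 KO 1 had a summed level of 9789.6 over 8 choroid plexus markers against 66.2 to 149.7 in wild type and 133 and 139 in the other Fezf2 KO libraries, and wild type 1 had 5921 over 9 meningeal markers against 752 to 1239 in the other 5 libraries. Of 5 choroid plexus markers tested, limma, edgeR and DESeq2 called 0, and 1 (Ttr) had an unadjusted p under 0.05. Ttr had 13.1, 15.7 and 9.45 in wild type and 8950, 65.6 and 68.0 in Fezf2 KO, without overlap (limma adjusted p = 0.401). The others tested overlapped. In the 12 striatal markers the sum was 13077 to 16974 in wild type and 5654 to 11113 in Fezf2 KO. Lower at an unadjusted p under 0.05 were 10 of the 12, against 4.37% of all genes tested (9.03% in either direction). Of these 10 limma and edgeR called 1 lower (Ppp1r1b) and DESeq2 called 2. The 5 hippocampal markers summed to 1678 to 2005 in wild type and 2219 to 3219.8 in Fezf2 KO, with 0 of 4 tested changed by limma or edgeR (1 by DESeq2, and 2 had an unadjusted p under 0.05). Those 2 were Fibcd1 (means of 889 in wild type and 1837 in Fezf2 KO) and Prox1 (643 and 742). Zbtb20 (221 and 261) and C1ql2 (30.4 and 35.5) overlapped between genotypes, and Tdo2, under the filter, was lower in Fezf2 KO (8.85 and 5.81). The 6 thalamic markers summed to 3775 to 3991 in wild type and 4068 to 4627 in Fezf2 KO, with 0 of 5 tested changed by limma or edgeR (1 by DESeq2, and 1 had an unadjusted p under 0.05). That 1 was Rgs16, with a mean of 1568 in wild type and 2223 in Fezf2 KO without overlap (log2 0.50, limma adjusted p = 0.0576). Prkcd, the other thalamic marker with many reads, had means of 2223 in wild type and 2153 in Fezf2 KO (log2 -0.046, limma adjusted p = 0.911). Gbx2, Lhx9, Shox2 and Tnnt1 had means of at most 30.4 in either genotype. Marker sums of endothelium, the oligodendrocyte lineage and radial glia overlapped between genotypes. In these lists 1 of 9, 2 of 8 and 0 of 8 genes had an unadjusted p under 0.05. Limma and edgeR called 0 of them, and DESeq2 called 1, in the oligodendrocyte lineage.

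In Fezf2 KO cortex 3 of the 43 tested Wnt genes of this list rose and 0 fell by limma (by edgeR 3 and 0, by DESeq2 6 and 1, and 2 with a lower level had an unadjusted p under 0.05). They were Fzd10, which encodes a Frizzled receptor, Frzb, which encodes the secreted Wnt-binding protein sFRP3, and Sp5, a zinc finger transcription factor gene that Wnt signalling switches on. Fzd10 had 132, 75.9 and 116 normalised reads in the wild type brains and 244, 274 and 294 in the Fezf2 KO brains (log2 1.35, SE 0.204, limma adjusted p = 0.0286). All Fezf2 KO libraries lay above all wild type libraries, and the means were 271 ± 25.0 against 108 ± 28.9 (SD, n = 3 each). Frzb had 125, 162 and 146 in the wild type brains and 282, 259 and 276 in the Fezf2 KO brains (log2 0.91, SE 0.126, limma adjusted p = 0.0183). The Fezf2 KO libraries were close together and well above the highest wild type library. Sp5 had 185, 175 and 131 in the wild type brains and 322, 414 and 301 in the Fezf2 KO brains (log2 1.08, SE 0.173, limma adjusted p = 0.0393). Here too the genotypes did not overlap, with Fezf2 KO 2 the highest. Of all genes tested 0.712% changed by limma (0.404% upward and 0.308% downward), 0.689% by edgeR and 2.3% by DESeq2, against 3, 3 and 7 of the 43 tested Wnt genes.

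The promoter windows of these 3 genes are shown because they rose together and because Sp5 is a known transcriptional target of the pathway. Each runs from 250 bases before to 50 bases after the gene start in RefSeq's GRCm38.p6 annotation, a later build than the mm9 that the submitters' processing notes name, and 30 of the 46 Wnt genes had at least 1 window there. Capitals mark 2 motifs searched on both strands, the Tcf/Lef core motif in the form CTTTGAT (reverse ATCAAAG) and the GC box GGGCGG (reverse CCGCCC) bound by Sp-family factors. The windows are Fzd10 at chr5:128600856-128601155, plus strand, Frzb at chr2:80447347-80447646, minus strand, and Sp5 at chr2:70474673-70474972, plus strand.
Fzd10: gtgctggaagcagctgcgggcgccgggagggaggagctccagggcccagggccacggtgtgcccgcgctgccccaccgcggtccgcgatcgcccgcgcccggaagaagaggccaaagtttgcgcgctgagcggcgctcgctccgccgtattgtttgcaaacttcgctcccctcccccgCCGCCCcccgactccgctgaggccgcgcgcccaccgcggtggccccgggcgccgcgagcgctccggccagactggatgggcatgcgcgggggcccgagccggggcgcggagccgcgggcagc
Frzb: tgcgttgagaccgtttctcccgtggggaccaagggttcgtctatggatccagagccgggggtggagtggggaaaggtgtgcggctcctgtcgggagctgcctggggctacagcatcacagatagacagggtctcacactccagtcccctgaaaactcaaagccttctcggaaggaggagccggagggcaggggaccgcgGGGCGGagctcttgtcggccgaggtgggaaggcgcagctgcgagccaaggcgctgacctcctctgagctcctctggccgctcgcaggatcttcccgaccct
Sp5: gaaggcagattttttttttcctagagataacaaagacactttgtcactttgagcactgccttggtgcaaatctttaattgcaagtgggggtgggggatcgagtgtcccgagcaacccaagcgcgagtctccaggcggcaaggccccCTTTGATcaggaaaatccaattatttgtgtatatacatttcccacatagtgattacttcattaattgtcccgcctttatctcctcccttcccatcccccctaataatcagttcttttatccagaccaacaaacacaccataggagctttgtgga
The Sp5 window held CTTTGAT at bases 147 to 153 from its 5′ end, and those of Fzd10 and Frzb held it nowhere. A match to CTTTGAT stood in 3.73% of all 32851 promoter windows, and among the Wnt genes in those of Sp5, Wnt5b and Wnt11. The related form CTTTGAA (reverse TTCAAAG), in 5.14% of all windows, was present in that of Dkk1 and in no window shown. The windows of Fzd10 (bases 179 to 184) and Frzb (bases 200 to 205) held 1 GC box each, and that of Sp5 held none. At least 1 GC box stood in 35.7% of all windows. Of the 30 Wnt genes with a window, 23 had one, Ctnnb1, Tcf7 and Lef1 among them. In base composition the 3 windows shown ranged from 77.7% G and C in Fzd10 and 64.7% in Frzb to 45.0% in Sp5, against a median of 52.7% over all windows. These are matches of letters, and binding was not measured.

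**Figure D1:**
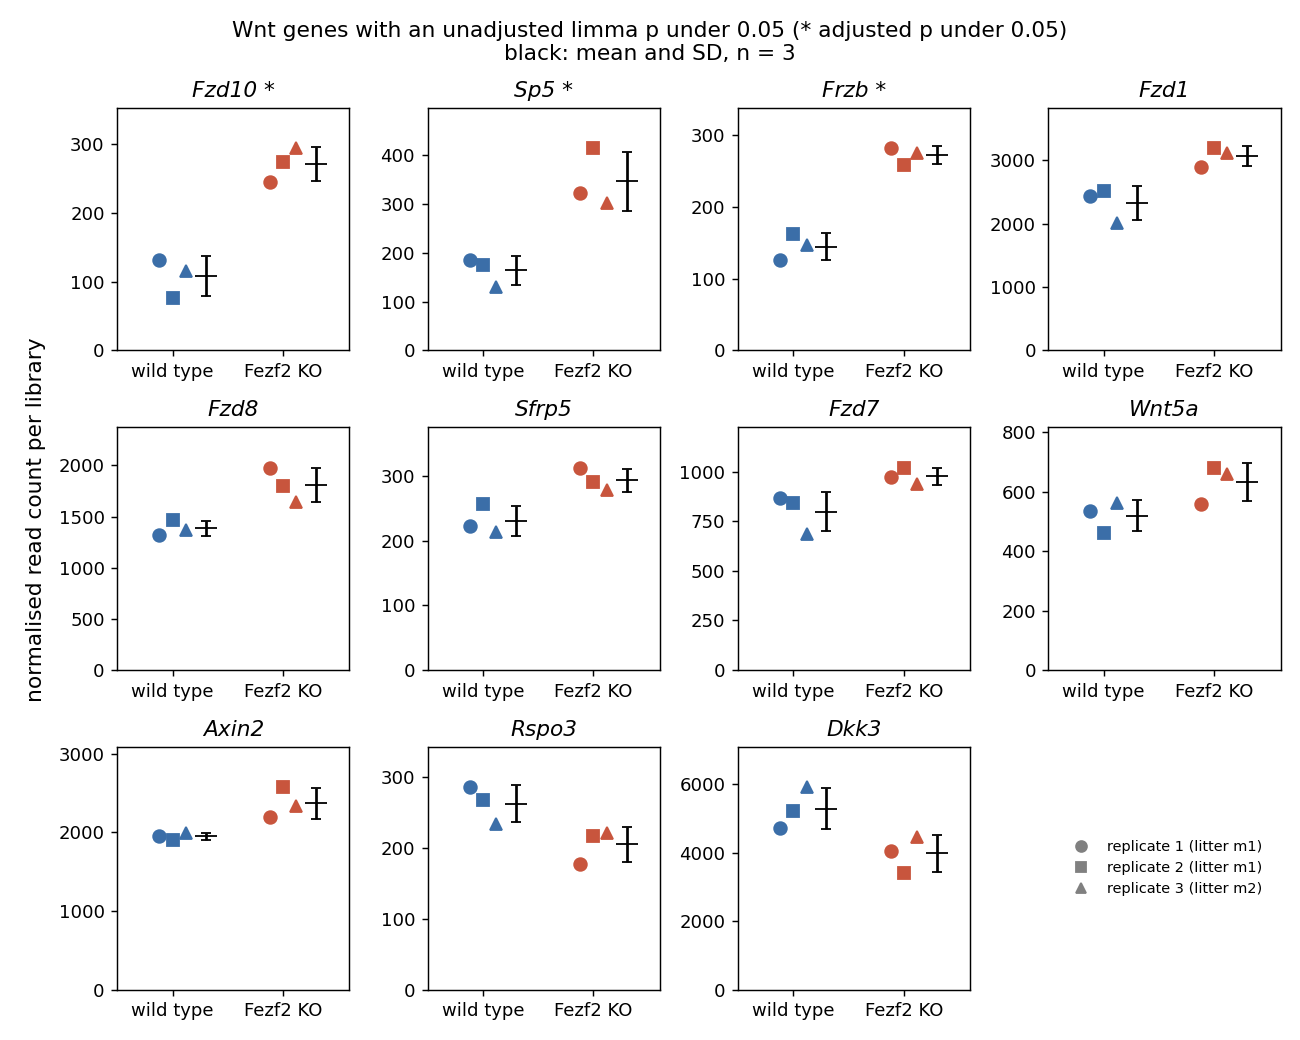
Normalised read count per library (vertical axes, starting at 0) of the 11 Wnt genes with an unadjusted limma p under 0.05, wild type in blue and Fezf2 KO in red, with the mean and SD of 3 libraries in black and the symbol shape giving the replicate and litter. Fzd10, Sp5 and Frzb, marked with an asterisk, changed at an adjusted p under 0.05, and for Fzd10 the lowest Fezf2 KO library (244) lies above the highest wild type library (132).

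The sizes of the 3 rises differed little between litters. In litter m1 alone the log2 difference was 1.36 for Fzd10, 0.92 for Frzb and 1.01 for Sp5 (limma adjusted p of 0.313, 0.282 and 0.173 with 2 libraries per genotype), and in the single pair of litter m2, which allows no test, it was 1.33, 0.91 and 1.2. With wild type 1 and Fezf2 KO 1 both left out, a setting chosen after seeing the tissue markers, the log2 differences were 1.59, 0.79 and 1.22. The adjusted p then was 0.056 for Fzd10, 0.114 for Frzb and 0.114 for Sp5. With 5 libraries in place of 6 the calls were less firm. The limma adjusted p of Fzd10 was 0.0889 without wild type 3 and 0.0575, 0.0743 and 0.137 when the Fezf2 KO brains were left out in turn. That of Frzb was 0.0509 or 0.0743 when wild type 1 or wild type 3 was left out, and 0.0596 or 0.0969 when Fezf2 KO 1 or Fezf2 KO 3 was. That of Sp5 was 0.0573, 0.0919 and 0.0965 leaving out wild type 1, 2 and 3 in turn, and 0.0832, 0.0842 and 0.0909 leaving out Fezf2 KO 1, 2 and 3 in turn. The striatal, hippocampal and thalamic marker sums also moved with genotype, the hippocampal mainly through Fibcd1 and the thalamic through Rgs16. Their part in the rises was not tested.

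**Figure D2:**
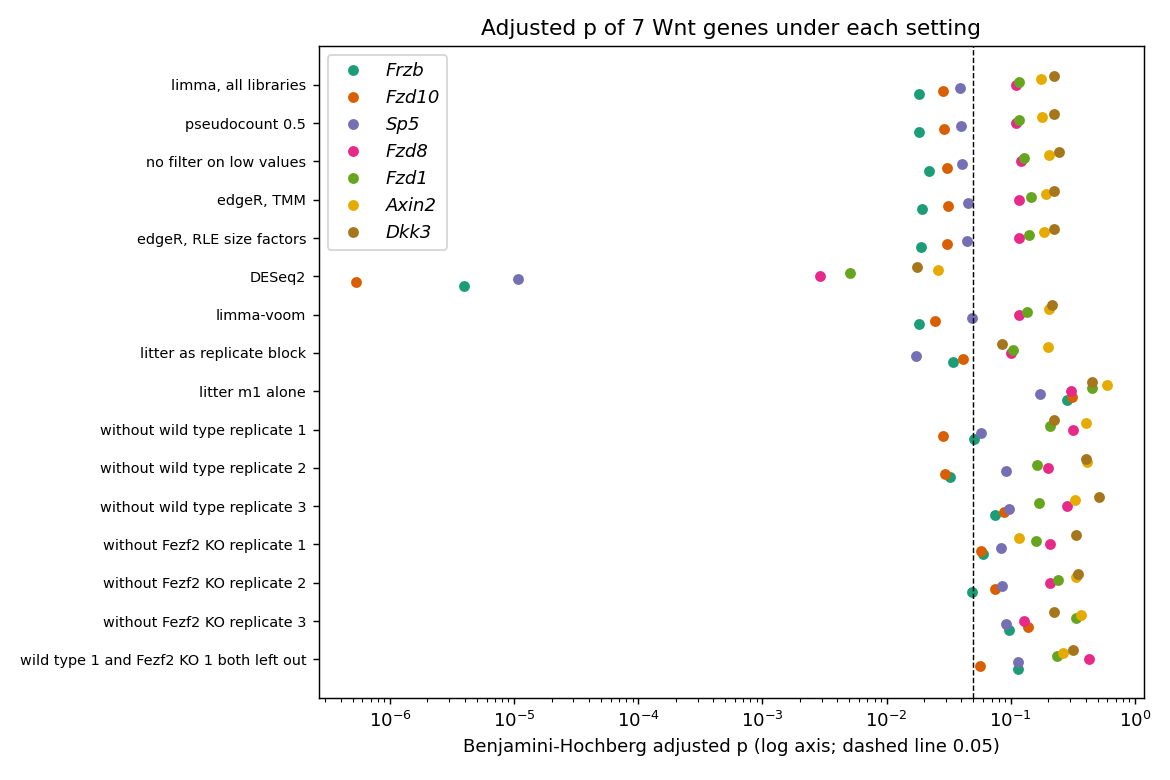
Benjamini-Hochberg adjusted p (log axis, dashed line at 0.05) of 7 Wnt genes under each fit or set of libraries, 1 row per setting. Frzb, Fzd10 and Sp5 lie below 0.05 in all fits to 6 libraries, while Fzd8, Fzd1, Axin2 and Dkk3 do so in DESeq2 alone.

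Beside Fzd10 lies a noncoding gene that rose with it. RefSeq names it Fzd10os, the opposite-strand transcript next to Fzd10, and the table holds it as 5930412G12Rik and again, with identical values, as the assembled transcript linc-Fzd10-BP. Its level was 16.8, 26.2 and 15.5 in the wild type brains and 68.2, 68.3 and 62.7 in the Fezf2 KO brains (log2 1.75, SE 0.232, limma adjusted p = 0.0148). The lowest Fezf2 KO library was above the highest wild type library, as for Fzd10. Leaving out wild type 1 or wild type 3 moved its adjusted p to 0.0521 or 0.0624, and the values were 0.0542, 0.0509 and 0.0714 leaving out Fezf2 KO 1, 2 and 3 in turn. The library strand is not stated, so reads of this transcript and of Fzd10 can be told apart only where the gene models do not overlap. Of the other 11 assembled transcripts named after a Wnt gene, 4 reached the expression filter, and 0 of these changed by limma, edgeR or DESeq2 or had an unadjusted p under 0.05. The most abundant, linc-Wnt7b-BP, had 318, 363 and 281 in the wild type brains and 320, 259 and 245 in the Fezf2 KO brains.

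The Frizzled genes encode the membrane receptors that bind Wnts, and all 10 were tested. Besides Fzd10, no other Frizzled changed over all genes, but Fzd1, Fzd7 and Fzd8 had an unadjusted p under 0.05 and every Fezf2 KO library above every wild type library. Fzd1 had 2442, 2518 and 2017 in the wild type brains and 2900.3, 3196 and 3113 in the Fezf2 KO brains (log2 0.41, SE 0.089, limma adjusted p = 0.116). Fzd8 had 1320.3, 1463 and 1372 in the wild type brains and 1979, 1798 and 1644 in the Fezf2 KO brains (log2 0.38, SE 0.082, limma adjusted p = 0.11). DESeq2 called both higher (adjusted p of 0.00506 for Fzd1 and 0.00291 for Fzd8), as it called 2.3% of all genes against 0.712% by limma. Fzd7 had 869, 843 and 686 in the wild type brains and 974, 1021 and 938 in the Fezf2 KO brains (log2 0.30, SE 0.101, limma adjusted p = 0.368). Counting Fzd10, 4 of the 10 Frizzled genes lay without overlap above wild type, where 7.6% of all genes tested did. Fzd3, a receptor of planar polarity signalling that axon tracts of the forebrain require, was the 1 member of the family without overlap below it, at 1424 ± 29.8 against 1564 ± 58.8 (log2 -0.13, limma adjusted p = 0.562).

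The Frizzled genes without such a shift were Fzd2, Fzd4, Fzd5, Fzd6 and Fzd9. Their log2 differences lay between -0.07 (Fzd5) and 0.13 (Fzd2), with adjusted p from 0.788 (Fzd2) to 0.982 (Fzd4), and their genotypes overlapped. Fzd4, the receptor for the ligand norrin in brain endothelium, had 163 ± 12.6 in wild type and 168 ± 22.6 in Fezf2 KO. The co-receptor genes Lrp5 (1768 ± 213 and 1869 ± 47.0) and Lrp6 (2007 ± 78.2 and 2151 ± 243) also overlapped, with adjusted p of 0.886 and 0.868. Per kilobase of merged exons in the GENCODE M21 annotation, a scale that allows levels of different genes to be set side by side, Fzd9 had the highest wild type mean of the Frizzled genes at 926 normalised reads, followed by Fzd1 at 554 and Fzd2 at 462. Fzd10 stood at 33.2 in wild type, near the least abundant, Fzd5 (28.5) and Fzd4 (24.3). In Fezf2 KO it reached 83.3, near the 90.9 of Fzd6. The gene models behind the deposited counts may differ from these, so only large gaps on this scale are informative.

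**Figure D3:**
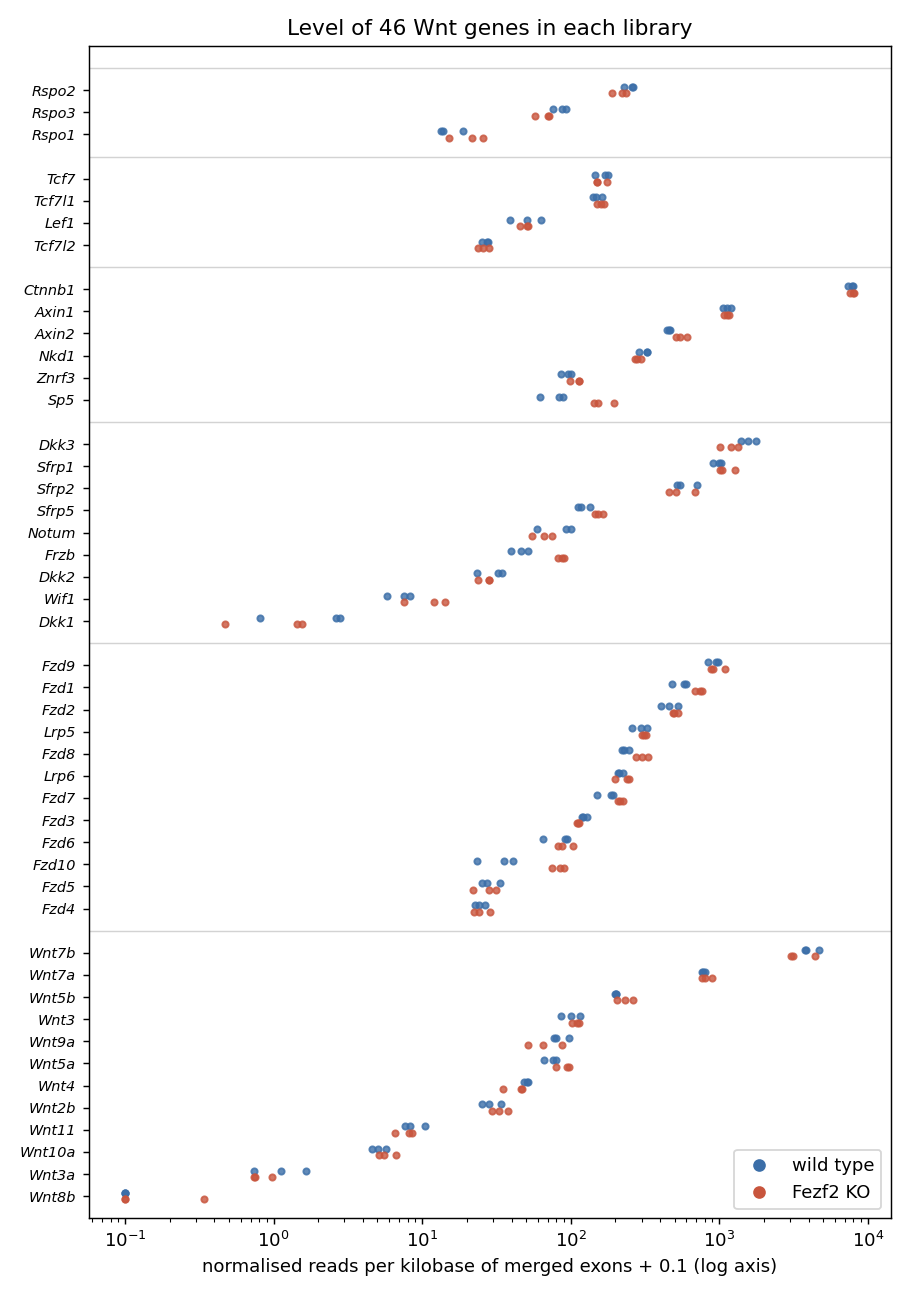
Level of each of the 46 Wnt genes per library, in normalised reads per kilobase of merged exons plus 0.1 (log axis), grouped by role, with wild type in blue and Fezf2 KO in red. Wnt7b and Ctnnb1 are the most abundant ligand and intracellular gene, and Fzd10, Frzb and Sp5 are low-abundance genes whose red points lie to the right of the blue ones.

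Among the 12 Wnt ligand genes 10 were tested and 0 changed by limma, edgeR or DESeq2. An unadjusted p under 0.05 was found for 1 of the 10, against 9.03% of all genes tested. Wnt7b, the ligand with the highest level per kilobase (wild type mean 4096), is a gene of deep-layer cortical neurons. It had 17737, 21646 and 17296 normalised reads in the wild type brains and 20351, 14489 and 14057 in the Fezf2 KO brains (log2 -0.23, SE 0.144, limma adjusted p = 0.746). Fezf2 KO 2 and 3 lay below all wild type libraries and Fezf2 KO 1 among them. Its paralog Wnt7a (wild type mean 782 per kilobase), a progenitor-derived ligand, had 2480 ± 60.4 and 2598 ± 206 (log2 0.06). Wnt5a, which signals mainly through planar polarity receptors, was the 1 ligand with an unadjusted p under 0.05. It had 534, 462 and 562 in the wild type brains and 559, 681 and 659 in the Fezf2 KO brains (log2 0.28, SE 0.111, limma adjusted p = 0.486), and the genotypes overlapped in Fezf2 KO 1. Wnt5b had 531 ± 6.92 and 618 ± 79.9, without overlap but with an adjusted p of 0.618. Wnt4 had lower values in Fezf2 KO without overlap, at 211 ± 7.51 and 179.9 ± 28.5 (adjusted p of 0.715). Wnt9a had 282 ± 36.4 and 225 ± 60.4, Wnt3 had 309 ± 45.5 and 333 ± 18.1, and Wnt2b had 96.5 ± 14.8 and 110.3 ± 14.0. Wnt11 had 31.5 ± 5.22 and 27.7 ± 3.69, and Wnt10a (12.4 ± 1.41 and 14.0 ± 2.0) was close to the filter. Wnt3a, a ligand of the embryonic cortical hem, did not reach it, with at most 4.30 normalised reads in a library, and Wnt8b, another hem ligand, had 1 read in Fezf2 KO 1 and 0 in the other libraries, where a count of 0 allows up to 3 reads, or 2.58 to 2.81 normalised reads in the wild type libraries.

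Secreted antagonists bind Wnts or their receptors outside the cell, and of 8 such genes tested 1 rose (Frzb) and 0 fell by limma. DESeq2 also called Dkk3 lower (adjusted p of 0.0174), and 3 of the 8 had an unadjusted p under 0.05. Of all genes tested 9.03% had such a p, while limma called 0.712% and DESeq2 2.3%. Sfrp5, which like Frzb encodes a decoy with a Frizzled-type binding domain, had 223, 257 and 213 in the wild type brains and 313, 291 and 278 in the Fezf2 KO brains (log2 0.35, SE 0.112, limma adjusted p = 0.324). The genotypes did not overlap. Sfrp1, a decoy of cortical radial glia, had 4278 ± 255 and 4851 ± 621 (log2 0.18, adjusted p of 0.654), and Sfrp2 had 1179 ± 202 and 1104 ± 239 (log2 -0.10, adjusted p of 0.933). Wif1, a further Wnt-binding factor, had 18.7, 13.1 and 17.2 in the wild type brains and 17.1, 32.3 and 27.4 in the Fezf2 KO brains (log2 0.59, SE 0.292, limma adjusted p = 0.627). Its Fezf2 KO 1 value lay within the wild type range.

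Dkk3, a divergent member of the Dickkopf family and the antagonist gene with the highest level per kilobase (1572 in wild type and 1184 in Fezf2 KO), was lower in each Fezf2 KO library than in any wild type library. It had 4719.7, 5215 and 5909 in the wild type brains and 4056, 3402 and 4469 in the Fezf2 KO brains (log2 -0.41, SE 0.112, limma adjusted p = 0.223). Dkk2, a ligand of Lrp5 and Lrp6, had 110.8 ± 21.5 and 99.1 ± 9.33, and Dkk1 stayed under the filter with at most 6.55 normalised reads. Notum, an enzyme that strips the lipid from Wnts, had 227, 133 and 209 in the wild type brains and 123, 168 and 148 in the Fezf2 KO brains (log2 -0.34, SE 0.217, limma adjusted p = 0.746), with wild type 2 inside the Fezf2 KO range.

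R-spondins strengthen Wnt signals by removing Znrf3 and its relative from the cell surface. Of the 3 genes, 0 changed by limma, edgeR or DESeq2 and 1 had an unadjusted p under 0.05, against 9.03% of all genes tested. Rspo3 had 285, 268 and 234 in the wild type brains and 177, 216 and 221 in the Fezf2 KO brains (log2 -0.36, SE 0.132, limma adjusted p = 0.432). The genotypes did not overlap, and the lowest library was Fezf2 KO 1. Rspo2, the most abundant of the 3 per kilobase (249 in wild type), had 835 ± 62.5 and 721 ± 79.5 (log2 -0.21, adjusted p of 0.604), and Rspo1 had 28.0 ± 5.51 and 38.0 ± 9.66 (log2 0.41, adjusted p of 0.738).

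Of 6 genes for intracellular components and feedback targets, limma called 1 higher (Sp5) and 0 lower, against 0.712% called among all genes tested. Sp5 and Axin2 were the 2 with an unadjusted p under 0.05, against 9.03% of all genes tested. The genes for the signal transducers themselves did not pass the test. Ctnnb1 had 27937 ± 1236 in wild type and 28458 ± 998 in Fezf2 KO (log2 0.03, SE 0.046, limma adjusted p = 0.937), and Axin1, a scaffold of the destruction complex, had 4285 ± 270 and 4236 ± 179.7 (log2 -0.02, SE 0.062, limma adjusted p = 0.982). The 4 Tcf and Lef factor genes did not change by limma, edgeR or DESeq2, and 0 of the 4 had an unadjusted p under 0.05. Their log2 differences were -0.05 for Tcf7, 0.08 for Tcf7l1, -0.05 for Tcf7l2 and -0.03 for Lef1, with SE from 0.093 to 0.179. Axin2, the most widely used readout of canonical Wnt signalling, had 1959, 1900.5 and 1987 in the wild type brains and 2195, 2575 and 2336 in the Fezf2 KO brains (log2 0.28, SE 0.070, limma adjusted p = 0.176). All Fezf2 KO libraries lay above wild type, and DESeq2 called it higher (adjusted p of 0.0259). The remaining feedback genes did not pass the test. Nkd1, which binds Dishevelled, had 1429 ± 104 and 1284 ± 59.8 (log2 -0.15, adjusted p of 0.622), Notum is described above, and Znrf3, a ubiquitin ligase that removes Frizzleds, had 742 ± 62.1 and 856 ± 66.3 (log2 0.21, adjusted p of 0.574). Of these 5 feedback genes (Axin2, Sp5, Nkd1, Notum and Znrf3), 3 had a positive and 2 a negative log2 difference.

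**Figure D4:**
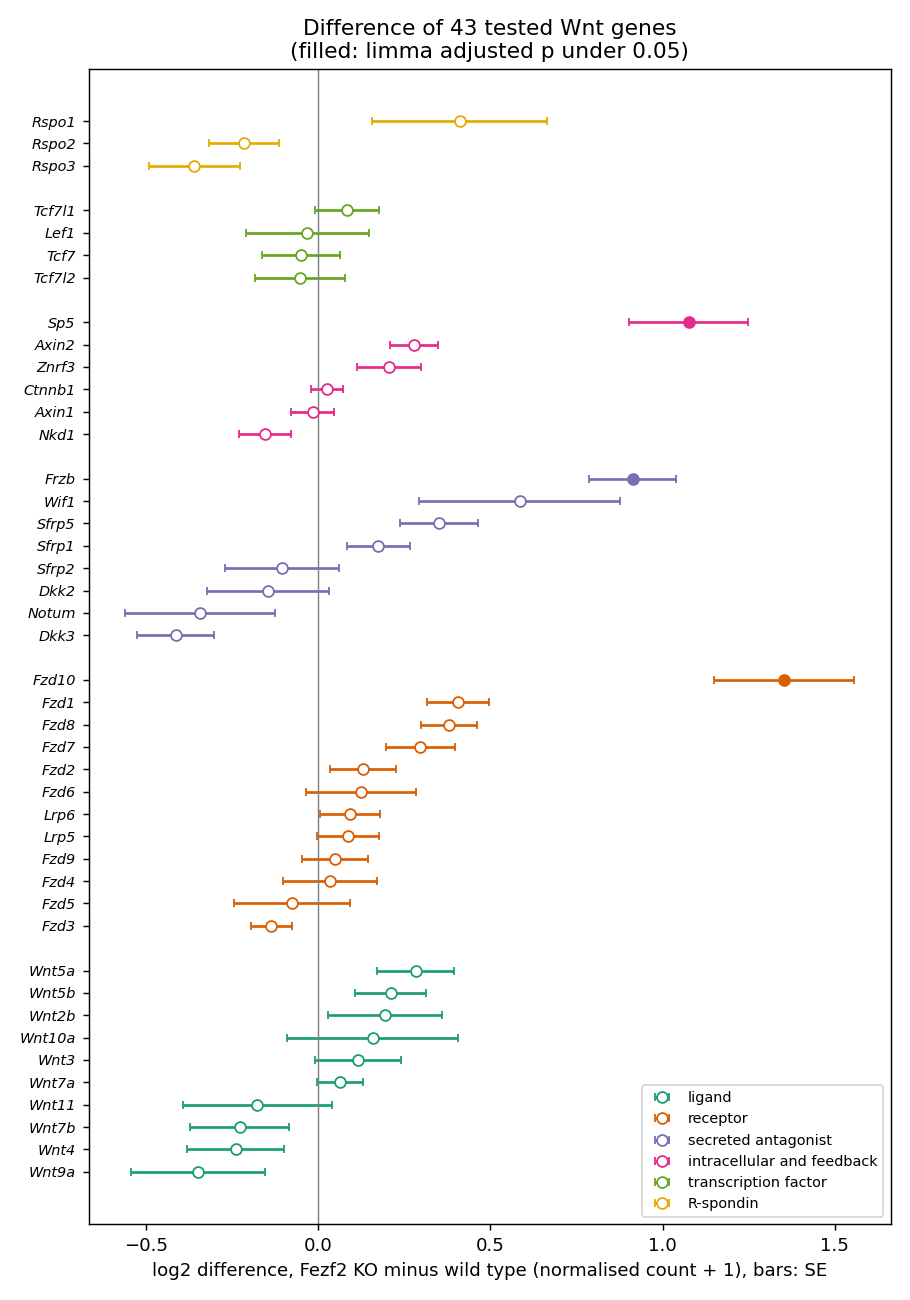
Log2 difference of Fezf2 KO minus wild type with its standard error for the 43 tested Wnt genes, grouped by role, with filled points for a limma adjusted p under 0.05. Fzd10 (1.35), Sp5 (1.08) and Frzb (0.91) are the filled points. To the right of 0 lie 26 of the 43 points (60.5%, against 51.0% of all genes tested).

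Over the whole group, 43 of the 46 genes were tested (all of them at or above 10 normalised reads in every library), and Wnt3a, Wnt8b and Dkk1 were not. The median log2 difference of the 43 was 0.08, against 0.0025 for all 17557 genes, and the median size regardless of sign was 0.18 against 0.08. In 11 of the 43 genes the unadjusted p was under 0.05, 9 higher and 2 lower, where the share over all genes was 9.03% (4.66% higher and 4.37% lower). The genotypes did not overlap in 13 of the 43, with 9 higher and 4 lower in Fezf2 KO, where 14.5% of all genes had no overlap (7.6% higher and 6.85% lower). These counts describe the list, which was chosen with results of these data known. In bulk tissue a change in the number of cells that express a gene and a change in its level per cell cannot be told apart.

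Of 78 other genes of the pathway, taken from a separate list, 69 were tested as 70 entries (Apcdd1 has 2), and 1 fell and 0 rose by limma. Of the 9 not tested, 3 (Wnt8a, Dkk4 and Trabd2b) matched no entry by symbol. The others (Wnt6, Wnt9b, Wnt10b, Wnt16, Rspo4 and Sost) did not reach the expression filter. At an unadjusted p under 0.05, 8 entries were higher and 4 lower (17.1% of the 70 entries, against 9.03% of all genes tested). Over all genes tested limma called 0.712%, edgeR 0.689% and DESeq2 2.3%. In this list edgeR called the same 1 gene as limma. That gene was Tle4, a Groucho corepressor that Tcf factors recruit, with 6410.5, 6772 and 6188 in the wild type brains and 1941, 2134 and 1933 in the Fezf2 KO brains (log2 -1.69, SE 0.061, limma adjusted p = 3.63e-05). It is also a marker of layer 6 neurons. Its relative Tle3 had 12002 to 12666 in wild type and 14323 to 18176 in Fezf2 KO (log2 0.38, limma adjusted p = 0.105), without overlap, and passed limma without Fezf2 KO 2. DESeq2 called Tle3 and Dact1, a binding partner of Dishevelled, higher besides Tle4. Among 20 cytoplasmic genes, the Dishevelled, Gsk3, Apc and casein kinase genes included, 0 changed by limma and 1 (5.0%) had an unadjusted p under 0.05. Among 9 planar polarity genes 0 changed by limma and 2 (22.2%) had an unadjusted p under 0.05. DESeq2 and edgeR called 0 of either group except Dact1 by DESeq2.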

How the data were processed

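Cortex RNA of 6 newborn mice was sequenced (TruSeq libraries, Illumina Genome Analyzer II), per the labels' protocols. Bowtie, STAR, DESeq and mm9 are named in the submitters' processing notes, with no settings. The deposited signal is, for each gene, a read count over the library's size factor, rounded. Dividing by the smallest step (0.812 to 0.936) gave whole reads for 100% of values within 0.006, 44978380 to 52872577 per library. Chi-square per degree of freedom between any 2 libraries was 8.86 to 33.0, so none repeats another. Intervals and floors cover counting error only. Some cortical markers are not reported here.

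Because the values are already scaled, limma 3.58.1 (R 4.3.3) with a variance trend was fitted to log2(value + 1) with genotype as the single term, on 17557 genes with at least 10 in at least 3 libraries. The members, lists, tests and alternatives were chosen with earlier results of these data known. By rule, Wnt genes with an unadjusted p under 0.05 are given per library and changed genes of the wider pathway are named. Tle3, Dact1, Wif1, Wnt7b and Notum were detailed after their values were seen. Alternatives were a pseudocount of 0.5, no filter, edgeR 4.0.16 (TMM or RLE), DESeq2 1.42.0 and limma-voom on the recovered reads, a litter block, m1 pups only, leaving out each library, and an adjusted p under 0.1. The labels give the litters. Over 17557 genes, which are not independent, deviations from the genotype mean correlated between -0.137 and 0.223 in 5 same-litter pairs of libraries and between -0.162 and -0.038 in 4 other pairs. Deviations sum to 0 within a genotype, so these correlations depend on each other and cannot test the litter labels. In 5 runs of simulated data with 17557 genes limma recovered 52.4% of 1.5-fold and 72.6% of 2-fold changes. Of its calls 6.8% were false, somewhat more than the adjusted p threshold of 0.05 allows. The simulated counts were drawn independently for each gene, without litter effects or the tissue differences of single libraries. Exon lengths came from GENCODE M21 and promoters from RefSeq, both GRCm38. Python 3.11.15, pandas 2.3.3 and matplotlib 3.10.9 were used.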

Additional observations from a re-analysis of the deposited data

How the results depend on the processing

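The 3 rises were called in the 7 other fits to all 6 libraries (a pseudocount of 0.5, no filter, edgeR with TMM or RLE factors, DESeq2, limma-voom and litter as a replicate block) and at an adjusted p under 0.1. With litter as a replicate block the numbers were 3 Wnt genes, 1 other pathway gene and 138 of all genes. The block changed no call on a Wnt gene, a gene of the wider pathway list, Fezf2 or 5930412G12Rik. DESeq2 called 7 Wnt genes, 3 other pathway genes and 403 of all genes. Litter m1 alone gave 0 Wnt genes (14 at an unadjusted p under 0.05) and 29 of all genes, and leaving out wild type 1 together with Fezf2 KO 1 (chosen after seeing the data) gave 0 Wnt genes (11 at an unadjusted p under 0.05) and 57 of all genes. An adjusted p under 0.1 gave 222 of all genes. Leaving out 1 library gave 0 to 2 Wnt genes, 1 to 2 other pathway genes and 61 to 119 of all genes. The 0 Wnt genes without wild type 3, Fezf2 KO 1 and Fezf2 KO 3 stood beside 15, 13 and 14 with an unadjusted p under 0.05, and fewer samples alone can lower a count of calls.

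The direction changed under some settings for genes that did not pass the test. In litter m1 alone the log2 difference was 0.19 for Fzd5, -0.012 for Fzd6, 0.043 for Dkk2, 0.022 for Axin1 and -0.00087 for Tcf7l1. Without wild type 1 and Fezf2 KO 1 it was -0.028 for Wnt3, 0.060 for Wnt11, 0.075 for Sfrp2, 0.037 for Lef1, 0.053 for Tcf7 and 0.019 for Tcf7l2. With 1 library left out the lowest and highest values had opposite signs for Fzd4 (-0.069 and 0.12), Fzd5 (-0.18 and 0.070), Fzd6 (-0.044 and 0.22), Fzd9 (-0.045 and 0.11), Lrp5 (-0.0047 and 0.17), Sfrp2 (-0.27 and 0.032), Axin1 (-0.061 and 0.029), Lef1 (-0.21 and 0.14), Tcf7 (-0.14 and 0.013), Tcf7l2 (-0.12 and 0.0082) and Ctnnb1 (-0.010 and 0.055). The cause was not tested.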

Other observations

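Lgr5, Sostdc1, Ror2 and Vangl1, pathway genes outside the group above, stood without overlap between genotypes but did not pass limma. They were chosen after their values were seen. Of the 70 tested entries of the wider pathway list 16 had no overlap (22.9%, 11 higher and 5 lower in Fezf2 KO), where 14.5% of all genes had none. The 5 lower ones include Tle4, described above, which passed limma. Lgr5, a receptor for R-spondins, had 20.6, 10.5 and 14.6 normalised reads in the wild type brains and 25.2, 28.7 and 30.0 in the Fezf2 KO brains (log2 0.88, limma adjusted p = 0.318). Sostdc1, which encodes a secreted antagonist of Wnt and BMP signals, had 145, 127 and 134 in the wild type brains and 159, 178 and 169.6 in the Fezf2 KO brains (limma adjusted p = 0.448). Ror2, a receptor for Wnt5a, was lower, with 418, 352 and 266 in the wild type brains and 245, 259 and 189.9 in the Fezf2 KO brains (log2 -0.57, limma adjusted p = 0.344). Vangl1, a planar polarity gene, had 270.4, 288 and 252 in the wild type brains and 184, 226 and 193 in the Fezf2 KO brains (log2 -0.43, limma adjusted p = 0.244).

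A pair of ligand genes that did not reach the expression filter was high in wild type 1 alone. Wnt6 had 121.6 normalised reads in wild type 1 and 5.16 to 15.7 in the other 5 libraries, and Wnt16 had 25.3 in wild type 1 and 1.62 to 5.30 in the others. The meningeal markers were highest in the same library, with Slc6a13 at 361 against 2.62 to 4.87 and Aldh1a2 at 335 against 1.72 to 8.73. Their part in these values was not tested.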
